A study of Mus musculus with 2 samples.

Results

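Pulmonary surfactant genes were followed through the UV-positive cells of the mouse lung: Sftpa1, Sftpb, Sftpc, Sftpd, Sfta2, Abca3, Napsa, Lamp3 and Slc34a2. These are 9 of the 32285 genes in the deposited matrices, chosen by symbol, and all 9 were found. The donors were male C57BL/6 mice, wild type and 3 months old, and 1 condition was studied. Digested lungs were sorted for live single cells that fluoresce under UV light, which marks cells holding retinoids, and the sorted cells were sequenced on separate occasions as 2 droplet libraries, called library 1 and library 2 here. How many mice went into a library is not given in the sources used here, so spread between the libraries may be technical as well as biological. A barcode, meaning 1 droplet and usually 1 cell, was placed in a group by its unique molecular identifiers (UMIs, counted RNA molecules). The epithelial group needed at least 2 UMIs of Epcam and Cdh1 together, the stromal group 3 of Col1a2, Mfap4 and Pdgfra, the endothelial group 3 of Cdh5, Pecam1 and Egfl7, and the immune group 3 of Ptprc, Laptm5 and Cd52. Only barcodes that met exactly 1 of these 4 gates entered a group.

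Surfactant is a film of lipid and protein that lowers surface tension at the air side of the alveolus, and alveolar type 2 (AT2) epithelial cells make it. They store it in lamellar bodies, lysosome-related organelles, and secrete these into the alveolar fluid. Surfactant transcripts are among the most abundant RNAs of AT2 cells, so RNA that leaks from broken AT2 cells during digestion can enter the droplet of any other cell. RNA from a single such source keeps its genes in the same proportions wherever it lands, and for that reason each gene was measured in every group both as a level and as a ratio to its level in epithelial cells.

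Library 1 gave 9634 cells after filtering and library 2 gave 9988, with medians of 4480.0 and 7577.5 UMIs per cell, and 23 barcodes occurred in both libraries. The epithelial group held 776 cells in library 1 and 101 in library 2, with medians of 9693.5 and 13627 UMIs. The stromal group held 7677 and 7439 cells (medians 4303 and 7085 UMIs), the endothelial group 56 and 359 (1899.5 and 4015), and the immune group 263 and 317 (2998 and 4434). Independent markers followed the gates. The 4 check genes of each group lay between 209.7 and 5011 CPM (a gene's share of the UMIs of the group, scaled to counts per 1e6 UMIs) in their own group and at 93.46 CPM or less in every other group. UMIs were counted at the 3′ end of transcripts, so CPM does not scale with transcript length.

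Promoter sequence was at hand for 6 of the 9 genes (RefSeq, build GRCm38.p6), read over the 250 bases before each start site. It was searched for CTCAAG, the core bound by NKX2-1, and for TGTTTNC, a forkhead (FOXA) motif, on both strands. NKX2-1 and FOXA proteins are known activators of surfactant genes in AT2 cells, which is why these motifs were searched. CTCAAG stood in 3 of the 6 windows, against 13.3% of 32851 promoters of the same length. TGTTTNC stood in 2 of the 6, against 17.8% of all. The 3 windows with CTCAAG are shown 5′ to 3′, with the matched letters in capitals.
Sftpb, chr6:72304360-72304609, plus strand: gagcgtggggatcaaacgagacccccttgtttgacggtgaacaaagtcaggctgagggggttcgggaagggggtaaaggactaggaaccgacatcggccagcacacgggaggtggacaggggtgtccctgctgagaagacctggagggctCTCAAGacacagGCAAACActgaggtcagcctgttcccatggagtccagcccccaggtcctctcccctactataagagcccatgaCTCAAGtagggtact
Sftpa1, chr14:41131538-41131787, plus strand: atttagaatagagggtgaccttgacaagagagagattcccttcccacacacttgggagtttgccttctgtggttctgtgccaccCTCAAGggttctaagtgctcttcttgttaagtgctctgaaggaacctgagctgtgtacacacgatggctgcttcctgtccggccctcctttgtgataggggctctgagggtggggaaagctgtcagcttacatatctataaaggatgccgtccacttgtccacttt
Sfta2, chr17:35649458-35649707, plus strand: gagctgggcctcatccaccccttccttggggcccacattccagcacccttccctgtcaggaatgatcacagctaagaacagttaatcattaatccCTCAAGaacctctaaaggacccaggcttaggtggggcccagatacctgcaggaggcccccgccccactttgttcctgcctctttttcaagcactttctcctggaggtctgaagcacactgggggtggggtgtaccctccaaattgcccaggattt
The Sftpb window held CTCAAG at 100 and at 15 bases before the start, with the forkhead motif (on the other strand) at 88 bases before it. CTCAAG began 166 bases before the start of Sftpa1 and 155 before that of Sfta2. The Lamp3 window held TGTTTNC at 162 and 92 bases before its start. Neither motif was in the Abca3 and Slc34a2 windows, which were 67.6% and 69.6% G and C, with 21 and 28 CG pairs, where the median promoter had 52.4% and 6 pairs. A match is a description of the letters only.

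The positions of the genes on GRCm38 are from GENCODE M21, and all 9 are protein coding. Sftpa1 lies at chromosome 14, 41131782 to 41136452 on the plus strand, and Sftpd near it at 41172214 to 41185149 on the minus strand. Sftpc lies on the minus strand of the same chromosome at 70520949 to 70524081. Sftpb is at chromosome 6, 72304610 to 72314371 (plus), Napsa at chromosome 7, 44572380 to 44586862 (plus), and Slc34a2 at chromosome 5, 53038081 to 53071664 (plus). Lamp3 is at chromosome 16, 19653378 to 19706375 (minus). Chromosome 17 holds Abca3 at 24351950 to 24410201 and Sfta2 at 35601549 to 35650571, both on the plus strand. The RefSeq start sites used for the promoter windows match these positions for Sftpb and differ for the other windows. The windows of Sfta2 and Slc34a2, chr17:35649458-35649707 and chr5:53049103-53049352, lie inside the spans given here. Those of Abca3, Sftpa1 and Lamp3 reach into their spans. The Abca3 window ends at 24352022 and that of Sftpa1 at 41131787, and the Lamp3 window begins at 19706366.

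The 9 genes together made up 29.51% of all UMIs of the epithelial group in library 1 and 24.24% in library 2. Sftpc, the hydrophobic surfactant protein that is the classical AT2 marker, had 246025 CPM in the first library and 195407 in the second (mean 220716 ± 35792, SD, n = 2). It was the highest of the 9 genes in both libraries. Sftpb, the other hydrophobic protein and the one without which the film does not form, was at 7382 and 9029 CPM. Among the collectins, soluble lectins of host defence, Sftpa1 stood at 29301 and 24189 CPM and Sftpd at 3533 and 4020 CPM. Sfta2, a small secreted surfactant-associated protein, was at 1736 and 988.3 CPM, 1.76 times as high in library 1, which was the widest library difference of the 9.

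The genes of the lamellar body and of the cell surface were all below Sftpc, Sftpa1 and Sftpb. Abca3, the transporter that loads lipid into lamellar bodies, was at 704 and 680.7 CPM. Napsa, the aspartic protease napsin A that trims the SP-B precursor, was at 2470 and 2356 CPM. Lamp3, a membrane glycoprotein of lysosomes and lamellar bodies, was at 1128 and 1430 CPM. Slc34a2, the phosphate cotransporter of the AT2 surface, was at 2862 and 4283 CPM, 1.5 times as high in library 2. Abca3 differed least between the libraries (1.03-fold). With 2 libraries these differences carry no test.

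Nearly every epithelial cell held the whole set. A UMI of all 9 genes was found in 763 of the 776 cells of library 1 (98.32%), and none had fewer than 3 of them. All 9 were found in 91 of the 101 cells of library 2 (90.1%), while 7 had 2 or fewer and 5 had none. Between the tenth and the ninetieth percentile of cells in library 1, the level of Sftpc spanned 1.65-fold (184911 to 305068 CPM) and that of Sftpb 2.0-fold. Abca3 spanned 3.65-fold, Sftpd 3.28-fold and Lamp3 3.22-fold. The span was widest for the gene with the fewest UMIs per cell, Abca3, whose median cell held 6 UMIs, so counting noise is part of it. In library 2 the same span was 2.97-fold for Sftpc and between 2.62-fold (Sftpb) and 5.86-fold (Lamp3) for the others.

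Most of these cells were AT2-like by markers outside the set, namely at least 3 UMIs of Cxcl15, Lyz1 and Chil1, with no other epithelial subset called. In library 1, 727 of 776 cells met this, and in library 2 71 of 101, and their levels of the 9 genes were close to those of the whole group (Sftpc at 246851 and 202426 CPM). The other 49 cells of library 1 met the AT2 gate together with the AT1 (8), ciliated (39) or club gate (2), so all 776 met the AT2 gate, as did 92 of 101 in library 2. Without the AT2 gate, library 2 held 4 cells with the AT1 gate alone (Rtkn2, Akap5 and Hopx), 2 with the ciliated gate alone (Foxj1, Tppp3 and Dynlrb2) and 3 with both, and Sftpc was at 254.5 CPM in these 3. The 4 AT1-like cells had 2 UMIs of Sftpc, 3 of Abca3 and none of the other 7 genes, where 3 UMIs would have made 220.6 CPM. The 2 ciliated-like cells had no UMI of any of the 9, against a limit of 292.2 CPM.

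All 9 genes were higher in the epithelial group than in each of the others. The test was edgeR's quasi-likelihood test on UMIs summed by library and group, over 11768 genes, with Benjamini-Hochberg adjustment. All 9 passed against the stromal group (20.8% of all genes tested were higher in epithelial cells), against the endothelial group (18.7%) and against the immune group (22.9%). The median log2 difference over the 9 genes was 8.69 against stromal, 10.75 against endothelial and 7.93 against immune cells, where the medians of all genes tested were -0.11, -0.03 and 0.04. Sftpc was higher by 8.70 ± 0.68 on the log2 scale (SE) over stromal cells (adjusted p = 3.4e-08), by 10.75 ± 0.73 over endothelial cells (adjusted p = 2.379e-08) and by 9.08 ± 0.68 over immune cells (adjusted p = 4.488e-08). The difference of Sftpc over stromal cells was 10.04 without library 1, 7.43 without library 2 and 10.91 without the cells in which Sftpc was over 1% of UMIs (called Sftpc-high), and that over immune cells was 10.24 without the Sftpc-high cells.

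Abca3 and Napsa stood apart in the size of these differences. The difference of Abca3 was 6.21 ± 0.30 on the log2 scale against stromal (adjusted p = 3.688e-10), 4.97 ± 0.32 against endothelial (adjusted p = 1.555e-08) and 5.36 ± 0.31 against immune cells (adjusted p = 4.888e-09). Napsa was higher than in stromal cells by 8.66 ± 0.60 (adjusted p = 9.32e-09), within the range of the other genes, but higher than in immune cells by only 2.73 ± 0.46 (adjusted p = 0.0001544). The stromal difference of Napsa was 9.99 without library 1, 7.38 without library 2 and 10.52 without the Sftpc-high cells. Abca3 moved by over 1.5 times against endothelial cells without library 2 (5.57) and against stromal cells with gate thresholds multiplied by 2 (5.59). The other 7 genes were higher than in stromal cells by 8.48 (Sftpb) to 8.89 (Sftpd), and higher than in immune cells by 7.60 (Slc34a2) to 9.27 (Sftpa1). The fitted differences of Sftpb, Sftpd, Napsa and Slc34a2 against endothelial cells rest on a count of 0 in library 1 and depend on the prior count of the fit.

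**Figure D1:**
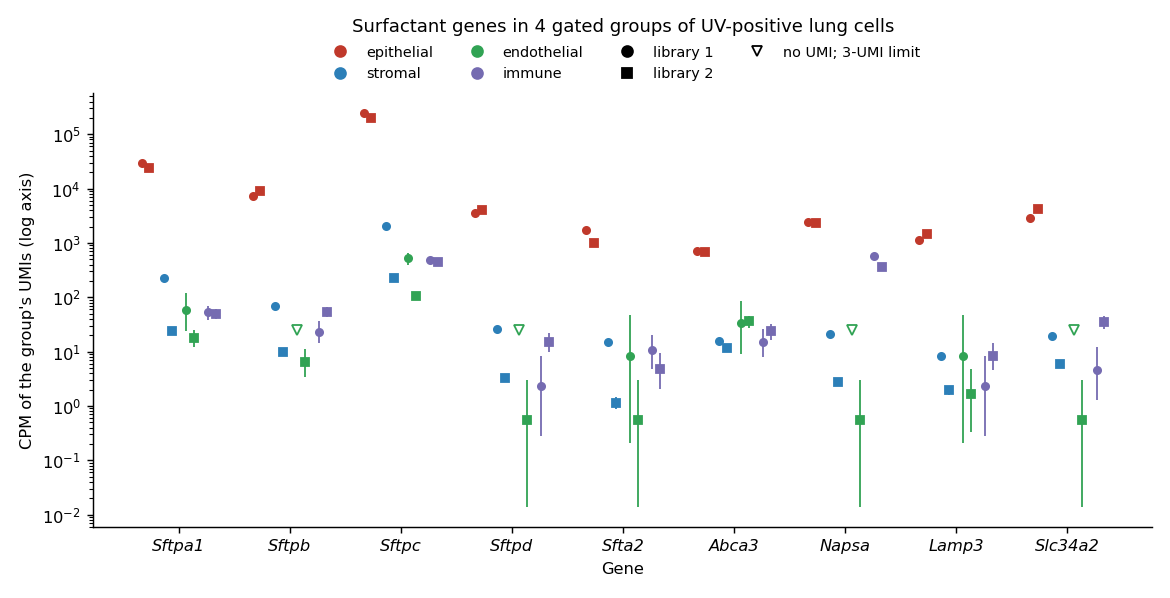
Level of each surfactant gene (CPM, log axis) in the epithelial, stromal, endothelial and immune groups of library 1 (circles) and library 2 (squares), with exact Poisson 95% intervals that cover counting error only. Open triangles stand at the level of 3 UMIs where a group had no UMI. The epithelial points are highest for all 9 genes, and the Napsa points of the immune group, at 566.3 and 367.8 CPM, lie nearest to them.

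Outside the epithelium the levels of most members were low and differed more between the libraries than within the epithelial group. Stromal cells had Sftpc levels of 2025 and 225.2 CPM in libraries 1 and 2, endothelial cells 518.7 and 107.1, and immune cells 483.6 and 453.2. For Sftpa1 the stromal levels were 230.8 and 23.7 CPM, the endothelial 58.56 and 17.94, and the immune 52.43 and 49.29. Stromal Sftpc thus differed 8.99-fold between the libraries while its epithelial level differed 1.26-fold. Abca3 was closer between the libraries, at 15.75 and 11.43 CPM in stromal (1.38-fold) and 33.46 and 35.87 CPM in endothelial cells (1.07-fold). Endothelial cells of library 1 had no UMI of Sftpb, Sftpd, Napsa and Slc34a2, where 3 UMIs would have made 25.1 CPM.

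A very small number of stromal cells held most of the stromal Sftpc. A cell was called Sftpc-high where Sftpc was over 1% of its UMIs, a line drawn after the values had been seen. In library 1, 41 of 7677 stromal cells (0.534%) were Sftpc-high, and they held 58167 of the 69826 stromal Sftpc UMIs (83.3%). In library 2, 11 of 7439 (0.148%) were, with 7659 of 13203 UMIs (58.01%). Few of all stromal cells lay near the line, but they were not few beside the Sftpc-high cells, so the line did not fall in a gap. In library 1, 5 cells lay between 1% and 2% and 27 were over 10%, while 19 of those below the line had over 0.5%, the highest at 0.985%. In library 2 the counts were 2, 3 and 3, with the lowest cell above the line at 1.43% and the highest below it at 0.985%.

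The Sftpc-high stromal cells held the other members too, in nearly the epithelial proportions in library 1 and less closely in library 2. In library 1 their CPM was 50.28% of the epithelial level for Slc34a2, the lowest of the 9, and 62.3% for Abca3, the highest, a spread of 1.24-fold over genes whose levels differ by orders of magnitude. In library 2 it ran from 19.66% (Sftpd) to 41.06% (Abca3), a spread of 2.09-fold. These cells carried a median of 9255 UMIs in library 1 and 10556 in library 2, where the other stromal cells had 4296 and 7081.5. The 4 stromal check genes (Col1a1, Col3a1, Dcn, Tcf21) summed to 1363 and 1405 CPM in them, against 3384 and 3179 CPM in the other stromal cells and 7.159 and 9.66 CPM in the epithelial group. The 18 epithelial reference genes outside the set summed to 12544 CPM in them in library 1, against 32.86 in other stromal cells and 20271 in epithelial cells. In library 2 the same sums were 6699, 23.57 and 16894 CPM. The epithelial gate needed 2 UMIs of Epcam and Cdh1 together. In library 1, 21 of the 41 Sftpc-high stromal cells (51.2%) held 1, against 0.21% of the other stromal cells. In library 2 these shares were 18.2% and 0.539%. So both stromal and epithelial transcripts were present under these barcodes, and no doublet caller was run. Whether each is 1 cell or more was not tested.

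**Figure D2:**
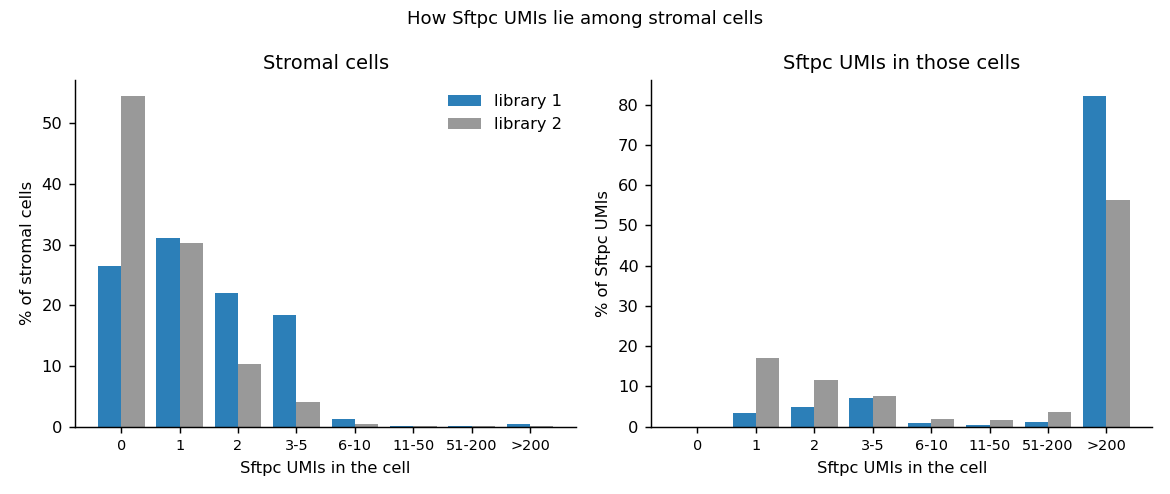
Stromal cells by the number of Sftpc UMIs they held (left, % of stromal cells) and the stromal Sftpc UMIs by the same classes (right, % of Sftpc UMIs), for library 1 and library 2, without error bars since each bar is a share of all cells or UMIs counted. Cells with more than 200 UMIs, 32 in library 1 and 9 in library 2, are hardly visible on the left and form the tallest bars on the right.

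Barcodes that met several gates or none were left out of the groups and held a large part of the surfactant RNA. In library 1, 155 barcodes met the epithelial and the stromal gate, all 155 were Sftpc-high, and their Sftpc was at 174614 CPM. In library 2, 122 barcodes did so, 113 (92.62%) were Sftpc-high, and Sftpc was at 116548 CPM. All barcodes with the epithelial gate among several held 15.46% of the Sftpc UMIs of library 1 and 65.16% of those of library 2, where the epithelial group itself held 71.13% and 30.99%. The stromal group held 2.676% and 1.556%. In library 2, 103 barcodes with the epithelial, stromal and immune gates had 3648 CPM of Sftpc and 45 with the epithelial and immune gates had 816.4, so barcodes with Epcam and Cdh1 UMIs did not always carry surfactant transcripts at the epithelial level. The 471 barcodes of library 1 that met no gate had a median of 1675 UMIs and 178093 CPM of Sftpc, and 176 of them (37.37%) were Sftpc-high. In library 2 there were 115, of which 6 were.

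Once the Sftpc-high cells were left out, the remaining stromal cells held small fractions of the epithelial level for 8 of the 9 genes. These fractions were more alike in library 2 than in library 1. In library 2 these fractions were 0.05002% for Sftpa1, 0.04751% for Sftpb, 0.04849% for Sftpc, 0.04081% for Sftpd, 0.0536% for Sfta2, 0.05514% for Napsa, 0.05977% for Lamp3 and 0.06184% for Slc34a2. Relative to the fraction of Sftpc they lay between 0.842-fold (Sftpd) and 1.28-fold (Slc34a2). In library 1 they ran from 0.09536% (Slc34a2) to 0.2028% (Sfta2), with 0.1391% for Sftpc. That was 0.686-fold to 1.46-fold of the fraction of Sftpc. The counting intervals of Slc34a2 (0.07694 to 0.1169%) and Sftpb (0.1828 to 0.2183%) did not overlap there. Every one of the 8 was higher in library 1 than in library 2, and the counting intervals of the libraries overlapped only for Lamp3, at 0.07429 to 0.1418% and 0.0442 to 0.07912%. The epithelial group was also larger in library 1, and with 1 library of each kind the part of that in the difference was not tested.

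Abca3 was the exception in stromal cells. It stood at 1.521% of its epithelial level in library 1 (exact 95% interval 1.365 to 1.692, counting error only) and at 1.594% in library 2 (1.439 to 1.766). These fractions were 10.9 and 32.9 times those of Sftpc in the same cells, and they did not follow the library difference of the other 8 genes. The UMIs behind them were spread thinly: 349 of 7636 remaining cells (4.57%) in library 1 and 578 of 7428 (7.781%) in library 2 had at least 1, with at most 3 and 4 in a cell. An even spread at 1 common CPM over cells of these depths would have given 4.645% and 8.122%. With so few UMIs per cell the 2 shares can hardly differ, and other sparse members were as close. In library 1 Sftpb had 6.273% against 6.332% and Sftpd 1.964% against 1.967%. Abca3 was not alone in its higher fraction of the epithelial level. Of the 18 epithelial reference genes outside the set, the median fraction in the same cells was 0.184% and 0.1264%, and the highest were Krt19 in library 1 (2.439%) and Krt7 in library 2 (2.442%).

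**Figure D3:**
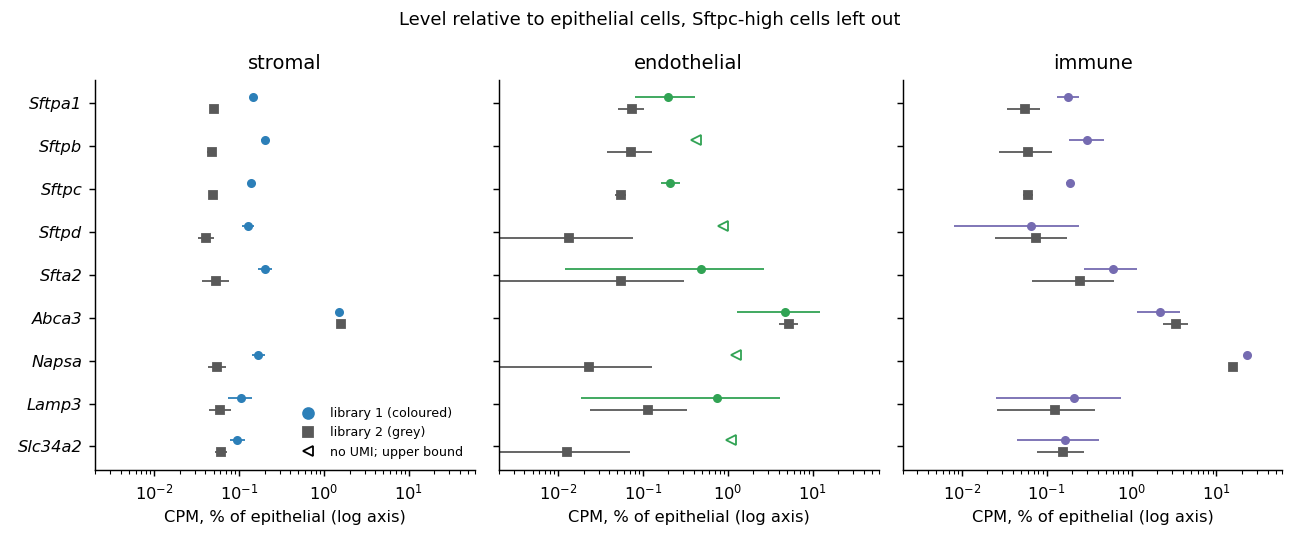
CPM of each surfactant gene in stromal, endothelial and immune cells as a percentage of its epithelial CPM (log axis), without the Sftpc-high cells, for library 1 (coloured circles) and library 2 (grey squares), with exact 95% intervals cut at the left edge and open triangles at the upper bound where no UMI was counted. Most points lie between 0.01% and 1%. Abca3 lies to the right in all 3 groups, from 1.521% to 5.27%, and Napsa at 22.96% and 15.48% in immune cells.

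Sftpc UMIs were present in a majority of stromal cells of library 1 and in about as large a share of the other groups. In the cells that were not Sftpc-high, a UMI was found in 73.42% of stromal, 64.29% of endothelial and 73.28% of immune cells in library 1, and in 45.49%, 36.21% and 40.82% in library 2. The mean number per cell was 1.527, 1.107 and 1.504 in library 1 and 0.7464, 0.5487 and 0.6203 in library 2. The median depths of these cells were 4296, 1899.5 and 3010.5 UMIs in library 1 and 7081.5, 4015 and 4429 in library 2. Stromal cells of library 2 were thus deeper than those of library 1 and had fewer Sftpc UMIs. After every cell was thinned to 2000 UMIs, which left out 778 stromal, 30 endothelial and 81 immune cells of library 1 and 43, 48 and 24 of library 2, the shares over all cells of the groups were 48.53%, 53.85% and 59.34% in library 1. They were 17.12%, 13.83% and 23.21% in library 2.

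Within stromal cells, the UMIs of most surfactant genes grew more slowly than the depth of the cell. No test was run on the classes. The remaining stromal cells were split by total UMIs into 4 classes of equal size, with medians of 2211 and 6661 UMIs in the lowest and highest class of library 1 (3.01-fold) and 4540 and 11540 in library 2 (2.54-fold). Sftpc was 1.31 times as high in the highest class of library 1 (1.311 and 1.713 UMIs per cell) and 1.66 times in library 2 (0.5757 and 0.9542). Its CPM was therefore lower in the deeper cells, at 626.6 and 239.3 in library 1 and 132.9 and 74.72 in library 2. Sftpa1 was 1.33 and 1.77 times as high per cell and Sftpb 1.39 and 1.65 times. Abca3 was 2.82 times (55 and 155 UMIs) and 3.67 times (83 and 305 UMIs) as high per cell, near or above the pace of depth, so its CPM in the highest class was 0.824 and 1.25 times that in the lowest. Slc34a2 had 23 UMIs in the lowest and 17 in the highest class of library 1 but 23 and 60 in library 2, and no common pattern could be read from it.

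**Figure D4:**
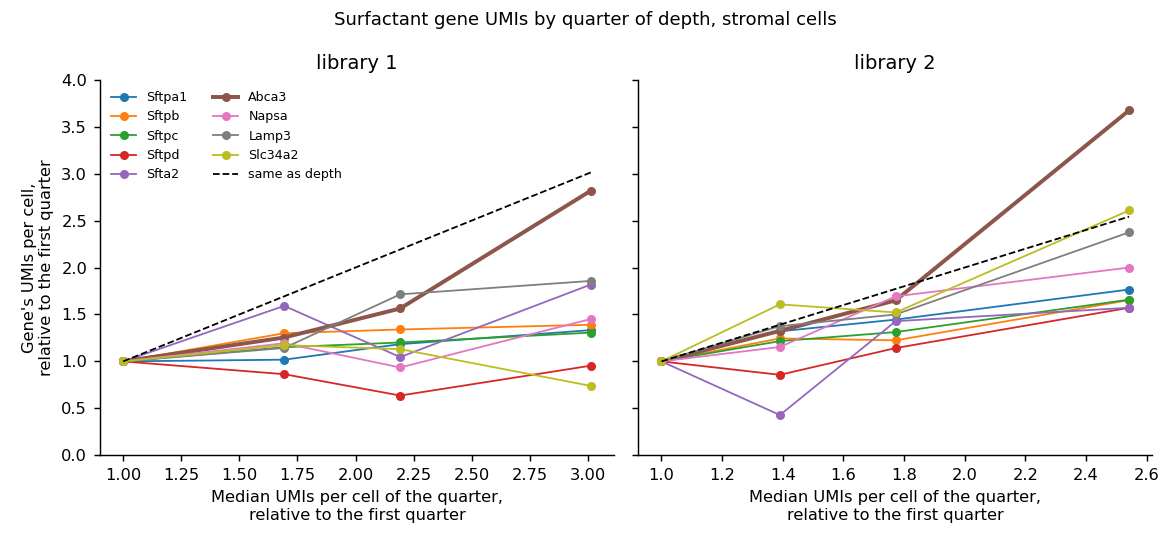
UMIs per stromal cell of each surfactant gene in 4 equal classes of cells by depth, relative to the lowest class, against the median depth of the class on the same relative scale, for library 1 and library 2, with the Sftpc-high cells left out. The dashed line marks growth at the pace of depth. Abca3 (thick line) ends at 2.82 and 3.67, and Sftpc ends at 1.31 and 1.66, below the dashed line in both libraries.

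Endothelial cells had more Abca3 than stromal cells. Abca3 was at 33.46 CPM (4 UMIs in 56 cells) in endothelial cells of library 1 and at 35.87 CPM (66 UMIs in 359 cells) in those of library 2, 4.754% and 5.27% of the epithelial level. A UMI was found in 7.143% and 15.6% of the cells. Napsa, in contrast, had no UMI in the 56 cells of library 1 and 1 UMI in the 359 of library 2. The 18 epithelial reference genes had a median fraction of 0.3361% in endothelial cells of library 2. Krt7 (16.44%), Krt19 (12.07%) and Cldn18 (6.118%) were above Abca3 there. In library 1 the highest of the 18 was Irx1, at 4.21%, below Abca3. Abca3 was lower in stromal than in endothelial cells by -1.24 ± 0.32 on the log2 scale (adjusted p = 0.007187), 1 of 9 members against 13.9% of all genes tested. This call held in each of the 9 alternative fits that gave a test, with adjusted p-values from 0.0003575 to 0.04271. The size of the difference ran from -1.589 to -0.415 over all 11 alternatives. In library 1 the endothelial counting interval was 9.118 to 85.68 CPM, which holds the stromal level of 15.75 CPM. Between endothelial and immune cells Abca3 differed by 0.39 ± 0.35 (adjusted p = 0.4363), which misses the threshold.

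Sftpa1, Sftpc and Slc34a2 were higher in stromal than in endothelial cells, 3 of 9 members against 16.6% of all genes tested. The difference was 1.81 ± 0.64 for Sftpa1 (adjusted p = 0.04411), 2.04 ± 0.53 for Sftpc (adjusted p = 0.007194) and 4.79 ± 1.503 for Slc34a2 (adjusted p = 0.02376), which rests on a single endothelial UMI over both libraries. The calls of Sftpa1 and Sftpc were lost without the Sftpc-high stromal and immune cells, an alternative chosen after seeing the data. Those cells were picked on Sftpc itself, and the endothelial group had none. In libraries 1 and 2 they held 83.3% and 58.01% of the stromal Sftpc UMIs and 81.7% and 49.06% of those of Sftpa1. A lower stromal level of both genes was thus bound to follow, and the loss is no separate evidence. The difference was then -0.19 for Sftpa1 (adjusted p = 0.7894), -0.11 for Sftpc (adjusted p = 0.8534) and 2.65 ± 0.88 for Slc34a2 (adjusted p = 0.02808).

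In immune cells Napsa was far above the other members. Its level was 566.3 CPM in library 1 (exact 95% interval 517 to 618.9) and 367.8 CPM in library 2 (339.3 to 398.2), 22.92% and 15.62% of the epithelial level. Sftpc stood at 0.1965% and 0.2319% of its own epithelial level in the same cells, and the median over the 9 members was 0.2066% and 0.5886%. A Napsa UMI was found in 49.81% of immune cells in library 1 and 51.1% in library 2, with up to 17 and 23 in a cell. Stromal cells, which were deeper, had one in 2.358% and 1.116%. An even spread over the immune cells at their depths would have given 77.13% and 77.12%, so the UMIs were gathered in fewer cells than depth alone would give.

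Napsa was lower in stromal than in immune cells by -5.94 ± 0.54 on the log2 scale (adjusted p = 1.873e-07), and Abca3 by -0.85 ± 0.30 (adjusted p = 0.03038). These were 2 of 9 members, where 22.8% of all genes tested were lower in stromal cells. The Napsa call held in all 9 alternative fits that gave a test and that of Abca3 in 5 of 9, with adjusted p-values up to 0.1467. Endothelial cells were lower than immune cells in 4 of 9 members (Sftpb, Sftpc, Napsa and Slc34a2), against 17.4% of all genes tested. Napsa differed there by -9.78 ± 0.95 (adjusted p = 9.608e-07), a fit that rests on 1 endothelial UMI in both libraries. Sftpb and Sftpc no longer passed without the Sftpc-high cells, which were picked on Sftpc itself.

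The Napsa of immune cells differed between subsets set by marker genes outside the 9. In library 1, cells with at least 2 UMIs of Ace and Treml4, markers of nonclassical monocytes, had 979.9 CPM of Napsa, and 35 of 41 held a UMI (85.37%). In library 2 they had 660.7 CPM and 42 of 45 held one (93.33%). B-cell-like cells (Cd79a, Cd79b, Ms4a1) had 928.9 and 532.5 CPM, with a UMI in 18 of 23 and 32 of 41. Cells with Flt3, Xcr1 and Clec9a UMIs, markers of type 1 dendritic cells, had 1053 and 428.8 CPM, with a UMI in 4 of 4 and 12 of 13. The few cells with Ccr7, Fscn1 and Cacnb3 UMIs, markers of mature dendritic cells, had 2323 CPM (1 cell) and 610.4 CPM (5 cells). The 79 and 43 immune cells that met no subset gate had 663.7 and 633.4 CPM, so part of the Napsa lay in cells these markers did not name.

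Other immune subsets had much less Napsa. Interstitial macrophage-like cells (C1qa, C1qb, C1qc), 44 and 20 cells with medians of 3917.5 and 6654 UMIs, had 91.34 and 75.65 CPM. They were deeper than the B-cell-like cells, which had medians of 1878 and 2508 UMIs and far more Napsa. T-cell-like cells had no UMI in 10 cells of library 1 (3 UMIs would have made 93.64 CPM) and 42.92 CPM in 51 cells of library 2, where all 11 UMIs came from 1 cell. Neutrophil-like cells had 51.85 CPM in library 1 and 219.4 in library 2, where 1 Sftpc-high cell held 8 of the 16 UMIs and the other 28 cells had 121.2 CPM (interval 52.34 to 238.9). The subset intervals of the high and the low groups did not overlap in library 1 for nonclassical monocyte-like, B-cell-like and type 1 dendritic-like cells against interstitial macrophage-like and neutrophil-like cells. In library 2 they did not overlap either, except for type 1 dendritic-like against neutrophil-like cells. Those intervals were 323 to 558.1 and 125.4 to 356.2 CPM, an overlap that was gone without the Sftpc-high cell. All of these intervals cover counting error only and not the spread between cells, and the type 1 dendritic-like subset of library 1 held 4 cells. The high and low groups were named from these same Napsa values, so a lack of overlap is not a test.

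**Figure D5:**
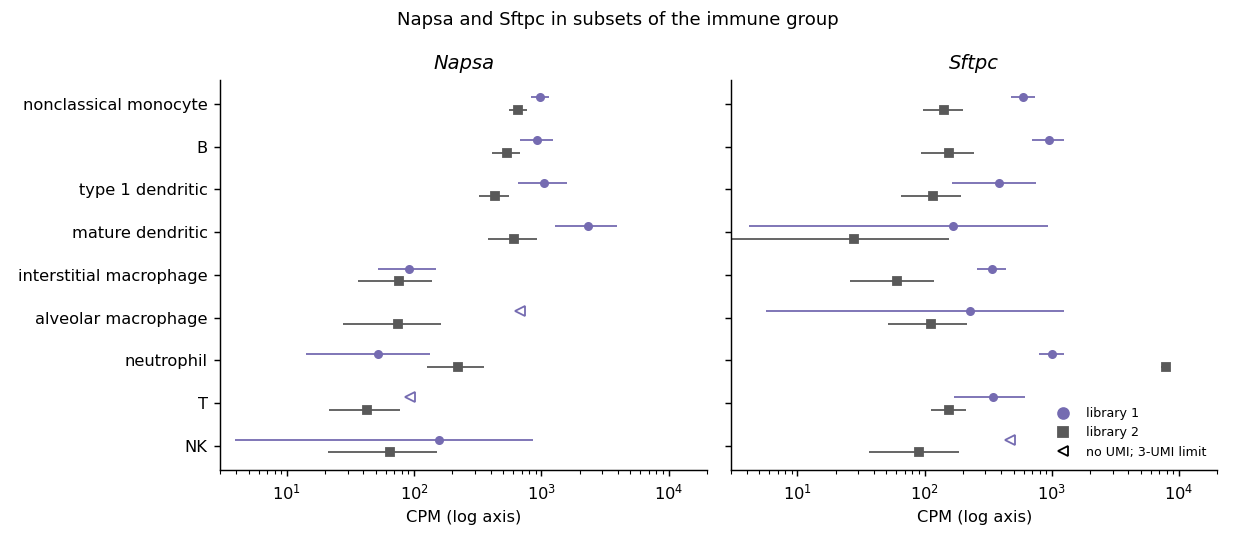
Napsa (left) and Sftpc (right) in subsets of the immune group (CPM, log axis), library 1 as coloured circles and library 2 as grey squares, with exact Poisson 95% intervals cut at the left edge, and open triangles at the 3-UMI level where none was counted. Napsa splits the subsets, with the upper 4 between 428.8 and 2323 CPM. The Sftpc point far to the right is the neutrophil-like subset of library 2, at 7815 CPM, where 1 cell held 558 of 570 UMIs.

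Single cells set the immune levels of several other members. In library 2, 1 cell with neutrophil markers and 6954 UMIs held 558 of the 754 Sftpc UMIs of the immune group (74.01%), 80 of 89 of Sftpb (89.89%), 60 of 82 of Sftpa1 and 47 of 58 of Slc34a2. It also held 20 of 25 UMIs of Sftpd and 11 of 14 of Lamp3. Without it and the 1 Sftpc-high immune cell of library 1, immune Sftpc was at 459.9 and 118.3 CPM and Slc34a2 at 4.669 and 6.639 CPM. Lamp3, which also marks mature dendritic cells in humans, had no UMI in the 1 and 5 mature dendritic-like cells, where 3 UMIs would have made 497.8 and 83.24 CPM. Alveolar macrophage-like cells (Ear1, Marco, Krt79), which take up surfactant, were only 1 and 6 cells. In library 2 they had 112.6 CPM of Sftpc (interval 51.47 to 213.7) and 75.04 of Napsa (27.54 to 163.3), which overlap the levels of T-cell-like cells.

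Genes with a pattern like that of each member were sought over 6 values, the log2 level in stromal, endothelial and immune cells of each library relative to epithelial cells of that library. Abca3 lay nearest to Lpcat1 (distance 0.90 on the log2 scale), an acyltransferase of surfactant phosphatidylcholine, and then to Slc39a8 (1.05) and Cobl (1.7). Napsa lay nearest to Lyz2 (2.75), the largest nearest distance of the 9 members. Macrophages and AT2 cells both express Lyz2. Napsa was at 91.34 and 75.65 CPM in interstitial macrophage-like cells and at 979.9 and 660.7 CPM in nonclassical monocyte-like cells. Lyz2 was not measured by immune subset here, so which cells share the pattern was not tested. For Sftpa1, Sftpc, Sftpd and Slc34a2 the nearest gene was Hc, at distances of 1.93 to 2.39, and for Sftpb it was S100g (2.11) with Hc second. Sfta2 lay nearest to Chil1 (0.98) and Lamp3 to Cxcl15 (0.96). Members share their libraries and, at low counts, their Sftpc-high cells, so these distances are a description.

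Genes around the surfactant pathway were counted from lists outside the set. All 7 transcription factors of the list were higher in epithelial than in stromal, endothelial and immune cells, with a median log2 difference of 5.98, 7.03 and 6.49 (all genes tested -0.11, -0.03 and 0.04, with 20.8%, 18.7% and 22.9% higher). Nkx2-1 was at 204.7 and 254.9 CPM in epithelial cells and at 1.595 and 0.955 CPM in stromal cells. Gata6 differed least from stromal cells (2.80 ± 0.25 on the log2 scale, adjusted p = 1.671e-07). Of 20 genes of lipid synthesis and surfactant processing, 19 could be tested. Against stromal cells 14 were higher and 2 lower (20.8% and 23.2% of all genes tested), against endothelial cells 14 and 2 (18.7% and 19.2%), and against immune cells 15 and 3 (22.9% and 22.6%). The median log2 difference of the list was 3.59, 3.05 and 3.15. Scd1, which desaturates fatty acids, was at 3289 and 2750 CPM in epithelial and 37.93 and 26.04 CPM in stromal cells, and Lpcat1 at 1083 and 922.2 against 20.53 and 12.65 CPM. Chpt1, the cholinephosphotransferase of phosphatidylcholine synthesis, was lower in epithelial than in stromal cells by -0.89 ± 0.24 (adjusted p = 0.006702), and Elovl6, a fatty acid elongase, had no UMI in epithelial cells. Adgrf5, a receptor that restrains surfactant secretion, was lower in epithelial than in endothelial cells (199.7 and 295.8 against 987.2 and 1553 CPM, adjusted p = 0.0003075).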

How the data were processed

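Droplet 3′ RNA-seq (10x v3.1) was done on 2 libraries of UV-positive lung cells. The deposited matrices hold whole-number UMI counts per gene and barcode, which the authors made with Cell Ranger 5.0.1 on mm10 (submitters' processing notes). The annotation release and the number of mice are not given in the sources used here. Cells with under 200 genes or over 10% mitochondrial UMIs were left out (8 and 27 barcodes in library 1, 3 and 59 in library 2, of 9669 and 10050). Barcodes meeting several gates (391 and 1657) or none (471 and 115) entered no group, and no doublet caller was run. UMIs were summed by library and group (8 sums) and tested with edgeR 4.0.16 (R 4.3.3), quasi-likelihood, TMM scaling, edgeR's filter on low counts and the library as a block, at an adjusted p of 0.05 (Benjamini-Hochberg). The block was used since sums with the same number come from the same library. P-values measure only how far the differences between groups varied over these 2 libraries. That spread was estimated from all 4 groups together, not from the 2 groups compared, and may be technical. The scripts were tested on simulated data. DESeq2 1.42.0 was an alternative, and the other alternatives are given with their effect after the report.

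CPM is UMIs per 1e6 UMIs of the group. Intervals are exact at 95% (Poisson for CPM, binomial for shares of cells and for ratios) and cover counting error only, and a count of 0 is given with the level of 3 UMIs. Thinning drew 2000 UMIs per cell without replacement. Likeness was the Euclidean distance over 6 log2 values (CPM plus 1) among 2055 genes with at least 50 CPM in epithelial cells, and the 3 nearest genes were eligible to be named. All 9 members are named, and genes of the other lists are named as examples of their counts. The members, gates and lists were chosen with earlier results of these data known. Promoters of Sftpc, Sftpd and Napsa were not analysed here.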

Additional observations from a re-analysis of the deposited data

How the results depend on the processing

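All 9 members stayed higher in epithelial than in stromal, endothelial and immune cells in every alternative run, with log2 differences of 5.59 to 10.96, 4.61 to 19.7 and 2.44 to 10.87 and adjusted p-values up to 0.0006972, 0.0009113 and 0.01176 where a test was possible. With 1 library left out no test can be made. Thinning cells to 2000 UMIs lowered the genes higher in epithelial cells to 1536, 1355 and 1696 (2450, 2196 and 2689 as reported) and the genes differing between endothelial and immune cells to 2765. Without the replicate block, which is the pairing of sums by library, these counts were 1872, 1766 and 2267, members called between stromal and immune cells were 1, and Sftpd there was 0.40.

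Calls between the groups that are not epithelial depended on the processing. As reported, 16.6% of all genes tested were higher and 13.9% lower in stromal than in endothelial cells. Lower than in immune cells were 22.8% in stromal and 17.4% in endothelial cells. The share over all genes is not given here for each alternative fit. The counts below are therefore not read as a result about the members. Stromal and endothelial cells differed in 4 members as reported, 2 by the DESeq2 test, 7 without the filter on low counts, 1 with gate thresholds multiplied by 2, 2 without cells holding an epithelial UMI and 2 without the Sftpc-high cells. Stromal and immune cells differed in 2 as reported, 1 without the filter, 1 with stricter gates, 4 at a mitochondrial limit of 5%, 4 without cells holding an epithelial UMI and 4 without the Sftpc-high cells. Endothelial and immune cells differed in 4 as reported, 7 without the filter, 1 with stricter gates, 1 at the 5% limit, 2 without cells holding an epithelial UMI and 2 without the Sftpc-high cells. With the gate thresholds multiplied by 2, called stricter gates in this section, the median percentage of the epithelial CPM was 1.523 in stromal, 3.196 in endothelial and 1.593 in immune cells. These gates did not only remove cells. The epithelial group of library 1 went from 776 to 436 cells, and the endothelial group of library 2 from 359 to 388. A barcode that no longer meets the epithelial gate can enter another group, so these groups need not be purer. How many barcodes moved was not counted.

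Log2 differences that changed sign between stromal and endothelial cells were Sftpb with stricter gates (-0.023), Sftpa1 (-0.06) and Lamp3 (-0.48) without cells holding an epithelial UMI, Lamp3 after thinning (-0.094), and Sftpa1 (-0.19), Sftpc (-0.11) and Lamp3 (-0.93) without the Sftpc-high cells. Between stromal and immune cells they were Sftpd by the DESeq2 test (0.13); Sftpb (0.57), Sftpd (0.27), Lamp3 (0.56) and Slc34a2 (0.43) with stricter gates; and Sftpb (0.85), Sftpd (1.51), Lamp3 (0.66) and Slc34a2 (0.70) at the 5% limit. They were also Sftpa1 (-0.46) and Sftpc (-0.56) without cells holding an epithelial UMI, Sftpa1 (-0.003), Sftpc (-0.22) and Sftpd (0.07) after thinning, and Sftpa1 (-0.53) and Sftpc (-0.67) without the Sftpc-high cells. Between endothelial and immune cells they were Sftpb (0.59) and Lamp3 (0.21) with stricter gates. With either library left out the stromal minus immune difference ran from -1.158 to 1.948 for Sftpa1, -2.559 to 1.348 for Sftpb, -1.112 to 1.876 for Sftpc, -2.276 to 3.288 for Sftpd, -2.168 to 0.32 for Sfta2, -2.199 to 1.627 for Lamp3 and -2.651 to 1.883 for Slc34a2, and the endothelial minus immune difference of Lamp3 from -2.787 to 0.979. The cause was not tested. The 56 endothelial cells of library 1 limit the depth there, where 3 UMIs make 25.1 CPM.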

Other observations

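Haemoglobin and airway secretory transcripts were also measured in the same groups. Hbb-bs, a beta globin of red cells, was at 36.07 and 124.9 CPM in stromal cells, 8.366 and 5.435 CPM in endothelial cells, 2.33 and 4.207 CPM in immune cells and 0.3977 and 1.486 CPM in epithelial cells of libraries 1 and 2. All 3 haemoglobin genes tested were lower in epithelial than in stromal cells (edgeR, adjusted p threshold 0.05), as were 23.2% of all genes tested. Scgb1a1, the secretoglobin of club cells, was at 696.7 and 1042 CPM in the epithelial group, where 2 cells of library 1 and 1 of library 2 met the club gate (Cyp2f2 and Scgb3a2), all with the AT2 gate as well, and at 26.74 and 40.71 CPM in stromal cells. Its stromal level was 3.838% and 3.907% of the epithelial one. Of the airway secretory genes tested, 2 of 3 were higher in epithelial than in stromal cells (20.8% of all genes tested).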
